A study of Mus musculus with 23 samples.

Results

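Scara5 and 7 other genes that carry iron into, through and out of cells were followed across 23 clonal lines of mouse preadipocytes, the precursors of fat cells. The 8 genes (Scara5, Tfrc, Fth1, Slc40a1, Slc11a2, Hmox1, Cp and Trf) were chosen by measured values of these lines, since the log2 signal of Scara5 had stood out as high in the Type 3 lines against Types 1 and 2. Of the 8, 7 are measured by at least 1 set of probes listed under that gene alone, out of 18193 genes measured in this way. Trf, which encodes transferrin, is listed only together with Srprb and has no value under this rule. Where a gene has several sets of probes, the one with the highest mean signal stands for the gene.

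Cells take up most of their iron bound to transferrin, which the receptor encoded by Tfrc carries into endosomes, where Slc11a2 (DMT1) moves the metal into the cytosol. Hmox1 frees iron from heme. Iron that is not used is stored in ferritin, whose heavy chain is Fth1, or exported by Slc40a1 (ferroportin) with the help of the copper ferroxidase Cp. When cytosolic iron is low, iron regulatory proteins stabilise the Tfrc message and block translation of ferritin, so transferrin receptor and ferritin protein usually move in opposite directions. SCARA5 is a class A scavenger receptor that binds ferritin and can bring iron into cells without transferrin, and it is known as a marker of some fibroblasts and fat cell precursors.

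Each line was grown from 1 cell and is therefore 1 clone. All lines came from the stromal vascular fraction, the cells of adipose tissue other than fat cells, of 1 male Immortomouse aged 8 weeks, a strain with a temperature-sensitive viral antigen in its cells, which keeps them dividing. The 23 lines trace back to 190 cells that were sorted after 2 passages, and all were cultured at 33 °C with interferon gamma at 10 units/mL, and 250 ng of RNA of each was run on 1 array. The submitters formed the types by clustering expression data. Type 1 held 3 lines, all from perigonadal fat (PGF in the clone names). Type 2 held 5 lines, 4 of them from subcutaneous fat (SCF) and 1 PGF. Type 3 held 8 lines, 4 from each depot, and the 7 lines labelled Other were 4 SCF and 3 PGF lines without a type of their own. The sources used here do not say whether the RNA came from undifferentiated cells, and p-values measure the spread between clones of this mouse.

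The label of preadipocytes was set against marker genes. Of 11 measured preadipocyte and fibroblast markers, 9 to 11 lay above the median of the whole table (5.13 on the log2 scale) in each Type 3 line. The counts were 8 or 9 in each Type 1 line, 8 to 10 in Type 2 and 8 to 11 in Other. Mesothelial markers, genes of the cell layer that covers visceral fat, had a mean log2 signal of 9.02 to 10.52 in Type 1. The Type 3 lines had 4.04 to 4.53, those of Type 2 had 4.39 to 4.62 and the Other lines 4.27 to 5.43. Of 15 measured macrophage markers, 3 to 6 lay above the table median in any line. Ptprc and Adgre1, which define leukocytes and macrophages, lay at or below 3.61 and 3.82 in every line, below the table median, while Csf1r ranged from 5.98 to 11.68.

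Scara5 was the member with the widest range. Its log2 signal was 5.27, 4.15 and 3.93 in the 3 Type 1 lines and 4.64, 6.22, 4.33, 7.09 and 4.61 in the 5 Type 2 lines. In the 8 Type 3 lines it had a lowest value of 7.91, a median of 9.49 and a highest value of 11.55. All 8 Type 3 lines thus lay above every Type 1 and Type 2 line, the closest pair being Type 2 line 4 at 7.09 and Type 3 line 7 at 7.91. The 7 Other lines covered the whole scale, with a lowest value of 4.75, a median of 8.34 and a highest value of 12.29. Other line 4 carried the highest Scara5 signal of all 23 lines and Other line 7 lay among the Type 1 and Type 2 lines.

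The group means of Scara5 were 9.72 ± 1.42 in Type 3 (SD, n = 8), 8.42 ± 2.46 in Other (n = 7), 5.38 ± 1.21 in Type 2 (n = 5) and 4.45 ± 0.72 in Type 1 (n = 3). Type 3 and Other differed by less than the larger SD, as did Type 2 and Type 1, whereas the step of 3.05 from Other to Type 2 was larger than the spread. Against the mean of Types 1 and 2, Type 3 was higher by 4.81 ± 0.83 (log2 difference ± SE), or 28.0-fold. Since this contrast chose the gene, that value is a description. The medians of Type 1 and Type 2, 4.15 and 4.64, lay below the table median of 5.13, so the fold rests on low signals. With an offset of 32 on the linear scale the difference was 3.76 ± 0.72. The second set of probes for Scara5 stayed below the table median in all 23 lines, between 4.32 and 5.04, and its difference was 0.04 ± 0.10. The difference averaged over both sets was therefore 2.42, and all that follows on Scara5 rests on the first set alone. Each array pools the cells of a culture, so more cells with the transcript and more transcript per cell cannot be told apart.

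**Figure D1:**
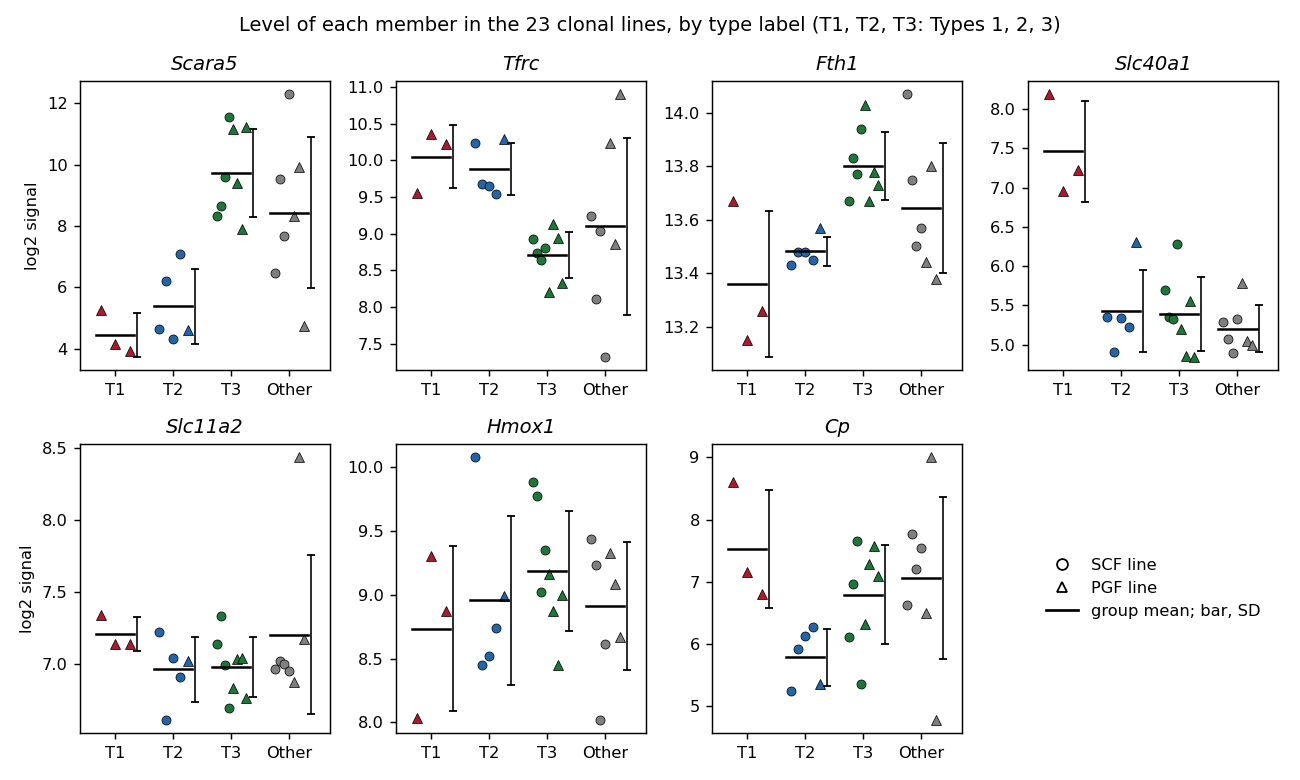
Log2 signal of each of the 7 measured members in each of 23 clonal lines by type label, with circles for SCF and triangles for PGF lines, a horizontal line for the group mean and a bar for the SD. The 8 Type 3 lines lie above all Type 1 and Type 2 lines for Scara5 and below all of them for Tfrc, while Slc40a1 is high in the 3 Type 1 lines.

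Clones with the same label differed widely in Scara5. Within Type 3 its SD of 1.42 was larger than that of 99.6% of the tested genes, whose median SD was 0.188. Within Type 2 the SD of 1.21 exceeded 99.1% of genes, and within Other the SD of 2.46 exceeded 99.9%. Fth1 was the opposite case in Type 2, where its SD of 0.054 was larger than that of only 2.8% of genes. Within Type 3, Type 3 lines 4, 8 and 5 stood at 11.55, 11.21 and 11.16, and the other 5 lines lay between 7.91 and 9.59. The 3 high lines came from both depots, line 4 from SCF and lines 5 and 8 from PGF.

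Tfrc, the receptor for transferrin-bound iron, showed the opposite order. Its log2 signal was 9.56, 10.36 and 10.22 in Type 1 and 10.23, 9.67, 9.65, 9.54 and 10.29 in Type 2. In Type 3 it had a lowest value of 8.21, a median of 8.77 and a highest value of 9.13, so that all 8 lines lay below the lowest Type 2 line at 9.54. Other ran from 7.32 in line 4 to 10.90 in line 7, with a median of 9.03. These are the lines with the highest and the lowest Scara5 in Other.

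Type 3 minus the mean of Types 1 and 2 was -1.25 ± 0.35 for Tfrc, or 2.37-fold lower, which is again a description. The group means were 10.04 ± 0.43 in Type 1, 9.88 ± 0.36 in Type 2, 9.10 ± 1.21 in Other and 8.72 ± 0.31 in Type 3, and no neighbours in this order differed by more than the larger SD. The same sign was measured in 5 further sets of probes for Tfrc, 3 of which are controls of the array aimed at the 3′ end, the middle and the 5′ end of the transcript. Their differences were smaller, from -0.49 ± 0.21 to -0.11 ± 0.06, and 4 of the 5 lay below the table median in every line.

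The start of the Tfrc gene is shown because Tfrc is the member that ran against Scara5 and the only one of the 3 members with a promoter window (Tfrc, Fth1 and Cp) whose 250 bases before a start held the hypoxia response core ACGTG or the CRE core TGACG, searched on both strands. Both lie in the stretch below, at -228 to -224 and -213 to -209 from the second annotated start. The stretch spans the first annotated start, chr16:32608896. ACGTG overlaps that first start and TGACG lies after it, so neither lies wholly before it. Capitals mark the 2 motifs, which do not overlap each other. The stretch is printed 5′ to 3′ on the plus strand from RefSeq, build GRCm38.p6.
Tfrc, chr16:32608889-32608918: ggtgtACGTGcggaaggaagTGACGtagat
Of 32851 promoter windows of the same length, 16.6% held ACGTG and 17.8% held TGACG. The E-box CACGTG (6.0% of windows) and the antioxidant response letters TGACNNNGC (10.2%) were in none of the 6 windows of these 3 members. TATAA (22.8% of windows) was in 1 window of each of the 3. A match of letters is a description of the sequence only.

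Fth1, the heavy chain that gives ferritin its ferroxidase activity, was modestly higher in Type 3. Its log2 signal was 13.67, 13.15 and 13.26 in Type 1 and between 13.43 and 13.57 in the 5 Type 2 lines. Type 3 ran from 13.67 to 14.03 with a median of 13.77, above every Type 2 line, but Type 1 line 1 at 13.67 reached the lower end of Type 3. Other ran from 13.38 to 14.07, with the highest value of all lines in Other line 1. Type 3 minus the mean of Types 1 and 2 was 0.38 ± 0.09, or 1.30-fold, and a second set of probes gave 0.38 ± 0.10. The signal lies near the top of the table, whose highest value is 14.46, and the range over all 23 lines was less than 1 log2 unit.

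**Figure D2:**
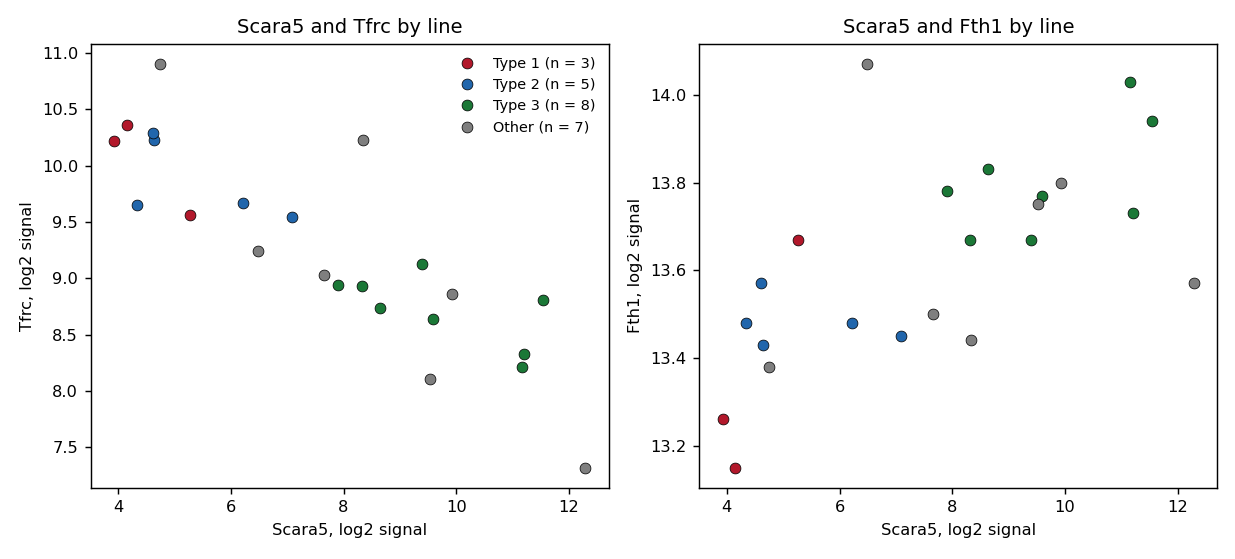
Log2 signal of Tfrc (left) and Fth1 (right) against that of Scara5, 1 point a line, coloured by type label. Other line 4, with Scara5 at 12.29, has the lowest Tfrc at 7.32, and Other line 7, with Scara5 at 4.75, the highest at 10.90.

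Slc40a1, the only known exporter of iron from cells, was highest in the Type 1 lines. Its log2 signal was 8.19, 6.96 and 7.23 in Type 1, 5.35, 4.91, 5.34, 5.22 and 6.31 in Type 2, 4.84 to 6.28 in Type 3 (median 5.34) and 4.89 to 5.78 in Other (median 5.07). All 3 Type 1 lines lay above all 20 others, while Types 2 and 3 overlapped. The share of all genes that set Type 1 apart in this way was not counted. The types were formed by clustering expression, and 34.7% of all genes were called in Type 3 minus Type 1. Type 3 minus Type 1 was -2.07 ± 0.30, whereas Type 3 minus Type 2 was -0.04 ± 0.25, so the difference from the mean of both (-1.06 ± 0.22) came from Type 1. A second set of probes, below the table median in every line, had the same sign (-0.37 ± 0.10). The mesothelial markers were high in these same 3 lines, and their part in the result was not tested. Type 1 line 1, which had the highest Slc40a1, also had the largest difference between the 3′ and 5′ sets for actin. It was 1.58, against 0.53 to 1.00 in the other 22 lines. The part of this difference in the Slc40a1 value of that line was not tested.

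Cp, the ferroxidase that loads exported iron onto transferrin, was lowest in Type 2 among the group means and varied between clones. It stood at 8.60, 7.16 and 6.81 in Type 1 and between 5.25 and 6.27 in Type 2. In Type 3 it had a lowest value of 5.36, a median of 7.02 and a highest value of 7.65, and in Other it ran from 4.78 to 9.01 with a median of 7.21. All 3 Type 1 lines lay above all 5 Type 2 lines, while Type 3 overlapped both. Type 3 minus Type 2 was 1.01 ± 0.51 and Type 1 minus Type 2 was 1.74 ± 0.66, neither past the threshold, and Type 3 minus the mean of both was 0.14 ± 0.46. All 8 sets of probes for Cp gave a small positive difference in that contrast, from 0.05 to 0.29, each less than its SE. The lowest Cp in Type 3 was in line 4, which had the highest Scara5 of that type.

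Slc11a2 and Hmox1 were called in no contrast between the groups. Slc11a2 lay between 6.61 and 7.34 in every line but Other line 6, which stood at 8.44. In that line the 3 other sets of probes for Slc11a2 were also the highest of the 7 Other lines, at 7.89, 6.20 and 5.15. Its difference in Type 3 was -0.11 ± 0.17, and Type 1 minus Type 2 was 0.25 ± 0.25. Hmox1, the inducible enzyme that opens the heme ring and frees its iron, ran from 8.02 to 10.08 over all lines, with the highest value in Type 2 line 1 and the lowest in Other line 3. Its difference in Type 3 was 0.35 ± 0.26.

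**Figure D3:**
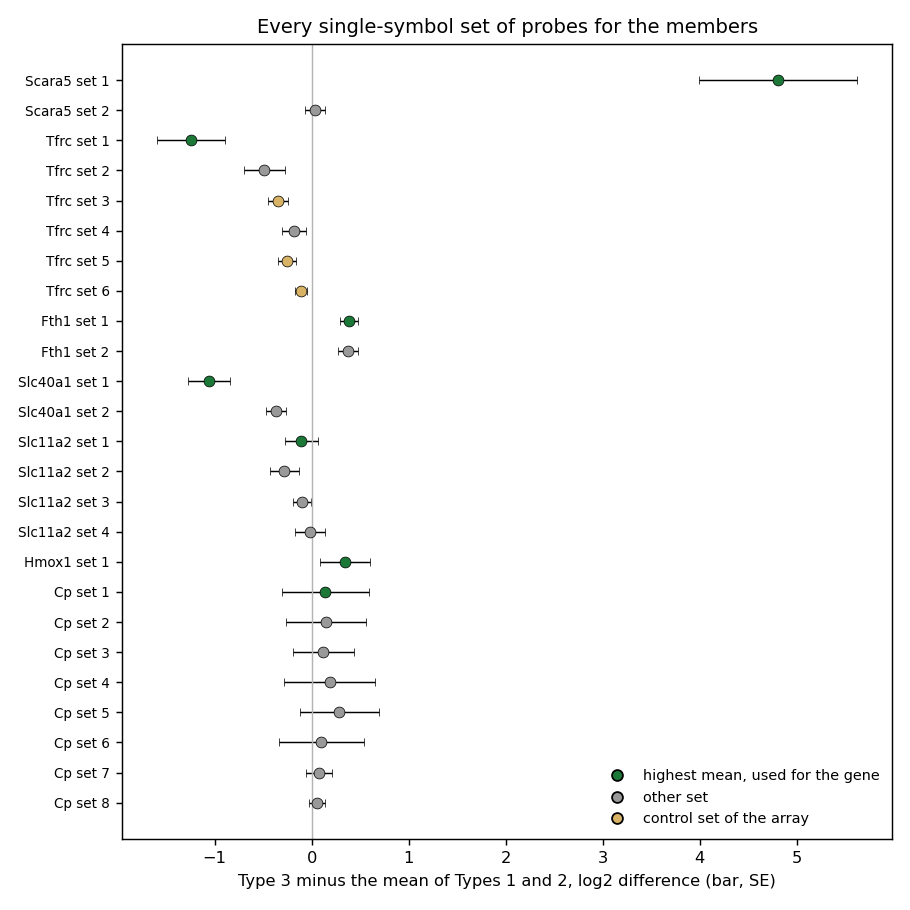
Type 3 minus the mean of Types 1 and 2, as a log2 difference with its SE, for every set of probes listed under 1 member, in order of mean signal within each gene. All 6 Tfrc sets lie below 0 and both Fth1 sets near 0.38, whereas the second Scara5 set lies at 0.04.

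Counts of members are read here against all 12307 genes tested, those whose signal exceeded the table median in 3 or more lines. Of the 8 members, 7 passed this filter. Type 3 minus the mean of Types 1 and 2 called 4 members at an adjusted p under 0.05 in limma (Scara5 and Fth1 higher, Tfrc and Slc40a1 lower), against 25.5% of all genes. Against Type 1 alone the same 4 passed in Type 3, against 34.7%, and this count was 2 without Type 1 line 2 or without Type 1 line 3, where Tfrc and Fth1 no longer passed. Tfrc no longer passed there without Type 3 line 5 (-1.26 ± 0.48), with depot in the model (-1.01 ± 0.46), with the number of the clone name in the model (-1.30 ± 0.51) or with the mean of its sets of probes (-0.64 ± 0.28). All 3 Type 1 lines are PGF. Against Type 2 alone only Scara5 passed in Type 3 (4.35 ± 0.93, 20.3-fold), against 0.382% of all genes. Tfrc (-1.16 ± 0.40) and Fth1 (0.32 ± 0.11) did not pass there. With the 16 lines of the 3 types alone both passed, and 567 genes were then called. The call of Scara5 against Type 2 did not hold without any 1 of 16 of the 23 lines. Among them were all 3 Type 1 lines, all 5 Type 2 lines and 7 of the 8 Type 3 lines. The difference itself ran from 4.085 to 4.774 as single lines were left out. In Type 1 minus Type 2 only Slc40a1 passed (2.03 ± 0.32), against 25.2% of genes. Scara5 and Tfrc were the 2 members whose Type 3 lines all lay on 1 side of every Type 1 and Type 2 line, which 220 genes, or 1.79%, also did. Such a share was not counted for Type 1 lines or for single pairs of types. The list was chosen with these contrasts known, so nothing is read from these counts.

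In Other minus Type 3, 0 members passed, against 0% of all genes in limma, with 1083 genes and 0 members at an unadjusted p under 0.05. Scara5 differed by -1.30 ± 0.85, which was -1.94 without Other line 4 and -0.69 without Other line 7. Tfrc differed by 0.38 ± 0.36, and by 0.68 and 0.08 without these same 2 lines. Fth1 differed by -0.16 ± 0.10.

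The depot of origin, which did not enter the choice of members, was tested with the group in the model. No member passed (0% of all genes did, with 1034 genes and 0 members at an unadjusted p under 0.05). Tfrc came closest, with PGF minus SCF at 0.63 ± 0.30 (adjusted p = 0.589, limma). In Other the 3 PGF lines averaged 10.00 ± 1.04 for Tfrc and the 4 SCF lines 8.43 ± 0.89, while in Type 3 the depots averaged 8.65 ± 0.45 and 8.78 ± 0.13 (n = 4 each). Scara5 differed by -0.50 ± 0.78 between depots (adjusted p = 0.893). Within Type 3 it averaged 9.92 ± 1.58 in PGF and 9.52 ± 1.45 in SCF lines, a difference of 0.40 (exact two-sided permutation test, p = 0.771, with 0.0286 the smallest p that 4 lines against 4 allow).

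A differentiation score of 2 to 4 is given for each line. Along it 0 members passed, against 0% of all genes (872 genes and 0 members at an unadjusted p under 0.05, limma). Scara5 had a slope of 0.70 ± 0.45 log2 units per point (adjusted p = 0.816) and Tfrc one of 0.02 ± 0.20. Slc40a1 had a slope of 0.21 ± 0.12 (adjusted p = 0.780).

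The media acidification score runs from 1 to 4, and the sources used here do not state which end means more acid. Along it 0 members passed, against 0% of all genes (1516 genes at an unadjusted p under 0.05, limma). Scara5 was the 1 member under that unadjusted level, at 0.77 ± 0.26 per point (adjusted p = 0.308). In Type 3 the 5 lines of score 3 ranged from 8.64 to 11.55, and the single lines of scores 1, 2 and 4 stood at 7.91, 11.21 and 8.32. In Other the 5 lines of score 1 ran from 4.75 to 9.53 and both lines of score 4 lay above them, at 9.93 and 12.29. Tfrc had a slope of -0.24 ± 0.12 (adjusted p = 0.421).

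Whether the members followed each other from clone to clone was examined within Type 3 and within Other, in 14 relations with exact two-sided permutation p-values adjusted over the 14. Scara5 and Tfrc ran against each other in both groups. In Other, Pearson's r was -0.86 (n = 7, exact p = 0.0177, adjusted 0.124) and Spearman's rho was -0.86 (exact p = 0.0238, adjusted 0.167). It lay between -0.93 and -0.74 with any 1 line left out. Without the 2 lines farthest from the median of Scara5, r was -0.41, so most of the relation rests on those 2 lines. In Type 3, r was -0.63 (n = 8, exact p = 0.0972, adjusted 0.327), rho was -0.57 (exact p = 0.151, adjusted 0.528), and r was -0.76 without the 2 farthest lines. Neither passed after adjustment.

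The other sets of probes for Tfrc gave r between -0.81 and -0.64 to Scara5 in Other and between -0.78 and 0.02 in Type 3. In Type 3 the smallest exact p belonged to Scara5 and Slc11a2, with r = -0.86 (n = 8, exact p = 0.00749, adjusted 0.105) and rho = -0.90 (exact p = 0.00456, adjusted 0.0638). Slc11a2 spanned only 6.69 to 7.33 in those lines, and in Other the same relation was 0.18 (n = 7, exact p = 0.676). Its lowest value was in Type 3 line 4, which had the highest Scara5. Another set of probes for Slc11a2 was also lowest there among Type 3 lines, at 6.43. The remaining sets were highest there, at 6.07 and 4.32, so the sets disagreed. The correlation of these other sets with Scara5 was not computed. Scara5 and Cp had r = 0.76 in Other (n = 7, exact p = 0.0510, adjusted 0.238) and -0.47 in Type 3 (n = 8, exact p = 0.234). The signals of Tfrc and Fth1 had r = -0.57 in Type 3 (n = 8, exact p = 0.131) and -0.38 in Other (n = 7, exact p = 0.406). None of the 14 passed after adjustment.

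Over all 23 lines, which fall into the 4 labelled groups and share 1 mouse and 1 array design, the correlation of Tfrc with Scara5 was -0.86, and 12 of the 12306 other tested genes had a more negative one. With each line centred on its group mean it was -0.78, and 15 genes were more negative. For Fth1 the correlation was 0.64 over 23 lines and 0.23 after centring. The genes most like Scara5 over 23 lines were Fzd1, a Wnt receptor (r = 0.904), Extl2, a glycosyltransferase of heparan sulfate (0.904), Cd248, the stromal surface protein endosialin (0.900), the ligand Wnt16 (0.894) and Atraid (0.890). Those that ran most against it were Tnfrsf12a, the receptor of the cytokine TWEAK (-0.933), Pkp2, a desmosomal protein (-0.920), the acyl-CoA thioesterase Acot7 (-0.913), the kinase Irak2 (-0.912) and Reep4 (-0.881). These values describe the lines and carry no test.

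Centred on group means, the highest correlations were Cd248 (0.887), the prion protein gene Prnp (0.843), Fzd1 (0.836), the selenium carrier Selenop (0.821) and Srgap2 (0.815). The lowest were Tnfrsf12a (-0.849), the growth factor Hbegf (-0.847), Acot7 (-0.828), the thioredoxin reductase Txnrd1 (-0.824) and Metap1 (-0.821). Tnfrsf12a averaged 9.87 in Type 3 and 10.18 in Other, against 10.89 in Type 1 and 10.90 in Type 2. Its correlation with Scara5 was -0.967 within Type 3 and -0.909 within Other. Cd248 averaged 10.03 in Type 3, 9.70 in Other, 8.90 in Type 2 and 7.24 in Type 1.

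The rest of the iron and heme pathways was given by 7 lists, which name 72 genes other than the members, of which 56 were tested. Type 3 minus the mean of Types 1 and 2 called 13 higher and 9 lower, or 39.3% against 25.5% of all genes, with a median difference of 0.00 as over all genes. Against Type 1 alone 16 were higher and 12 lower, or 50.0% where 34.7% of all genes were called. Against Type 2 alone 0 of 56 passed, where 0.382% of all genes did. Along depot and both scores 0 of 56 passed.

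Among 8 tested genes of iron uptake, by transferrin or by divalent metal transport, 4 were higher and 1 lower in Type 3 than the mean of Types 1 and 2. The endosomal ferrireductase Steap3, which reduces iron before Slc11a2 moves it, was higher by 0.93 ± 0.21, its relative Steap2 by 0.70 ± 0.16 and the metal importer Slc39a14 (ZIP14) by 0.69 ± 0.18. Against Type 2 alone Steap2 and Slc39a14 differed by 0.266 ± 0.180 and 0.184 ± 0.207. The ferrireductase Cybrd1 was lower by 0.65 ± 0.17 on the log2 scale, but not against Type 2 alone (0.065 ± 0.192). Steap3 ranged from 6.14 to 7.67 in Type 3, while its highest value was 6.22 in Type 2 and 5.74 in Type 1. The second transferrin receptor, Tfr2, differed by -0.02 ± 0.08.

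For ferritin storage 0 of 3 tested genes were higher and 1 was lower. This was Ncoa4, the receptor that delivers ferritin for breakdown, at -0.67 ± 0.11. Its signal was at least 10.50 in each Type 1 line and at most 9.64 in each line of Types 2 and 3. Against Type 2 alone Ncoa4 differed by 0.073 ± 0.117. For export 1 of 2 was higher, Heph, the membrane-bound relative of Cp. It had a mean of 8.09 ± 0.71 in Type 3. Its mean was 6.57 ± 2.52 in Type 2 and 3.50 ± 0.71 in Type 1. Type 3 minus the mean of both was 3.05 ± 0.95, and the difference from Type 2 alone was 1.52 ± 1.06. Heph ran from 3.22 to 8.59 in Type 2 and from 2.96 to 9.29 in Other, so its groups overlapped.

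Of 11 tested genes of iron sensing, 3 were higher and 1 lower. Hfe, which modulates iron uptake at the transferrin receptors, differed by 1.24 ± 0.20, the transcription factor Nfe2l2 by 0.50 ± 0.16, and Fbxl5, which degrades the iron regulatory protein Ireb2 when iron is plentiful, by 0.40 ± 0.09. The heme-sensing repressor Bach1 differed by -0.39 ± 0.14, but by 0.045 ± 0.154 against Type 2 alone. Neither message of the iron regulatory proteins was called in this contrast, with Aco1 at -0.16 ± 0.11 and Ireb2 at -0.09 ± 0.07. Ireb2 was called against Type 1 alone (-0.25 ± 0.09), while against Type 2 alone it was at 0.08 ± 0.08.

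Of 10 tested genes of heme synthesis, 1 was higher and 3 lower, with Alas1, the first enzyme of the pathway, at 0.52 ± 0.13 and Alad, the second, at -1.08 ± 0.07. The later enzymes Uros and Urod were at -0.26 ± 0.08 and -0.23 ± 0.07, and Uros was at 0.041 ± 0.091 against Type 2 alone. The lowest Type 1 line had Alad at 11.05, the highest Type 2 line at 9.72 and the highest Type 3 line at 9.34. Of 9 genes of heme breakdown and transport, 2 were higher and 1 lower: the biliverdin reductase Blvrb (0.77 ± 0.15), Lrp1, which takes up heme bound to hemopexin (0.72 ± 0.14), and the heme exporter Flvcr1 (-0.49 ± 0.16). Blvrb had the opposite sign against Type 2 alone, where it was -0.33 ± 0.17, and Lrp1 was at 0.095 ± 0.161 there. Of 13 genes of mitochondrial iron, 2 were higher and 2 lower. The scaffold protein Iscu was at 0.41 ± 0.11 and the chaperone Hspa9 at -0.41 ± 0.14. The mitochondrial iron importers Slc25a37 and Slc25a28 were at 0.36 ± 0.11 and -0.46 ± 0.11. Slc25a37 had the opposite sign against Type 2 alone (-0.135 ± 0.123), and Slc25a28 was at -0.004 ± 0.122 there.

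**Figure D4:**
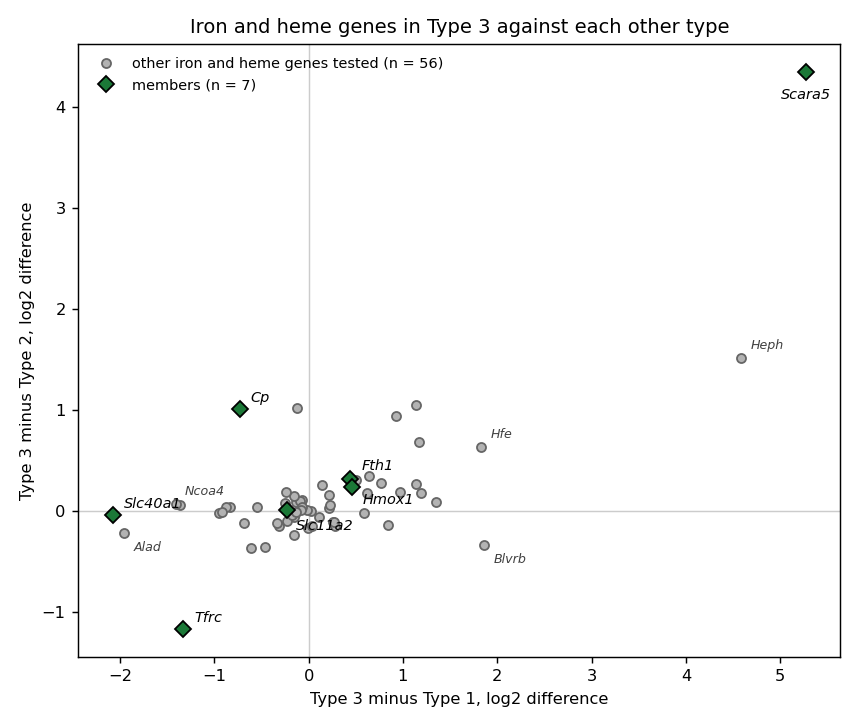
Log2 difference of Type 3 from Type 1 (horizontal) and from Type 2 (vertical) for the 7 measured members and 56 other iron and heme genes tested. Both axes use the same 8 Type 3 lines, and Scara5 lies apart at 5.27 and 4.35, with Tfrc at -1.33 and -1.16.

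Relatives of Scara5 and the oxidative stress genes that share regulation with Hmox1 were also listed. Of 3 tested class A scavenger receptors other than Scara5, 2 were higher in Type 3, Scara3 by 2.31 ± 0.37 and Colec12 by 1.11 ± 0.37. The lowest Type 3 line had Scara3 at 8.82, just above the highest Type 2 line at 8.79, and the highest Type 1 line was at 7.00. Of all genes, 25.5% were called in this contrast. In 1.79% all Type 3 lines lay on 1 side of every Type 1 and Type 2 line. Of 11 tested NRF2 target and oxidative stress genes, 1 was higher and 2 lower, where 25.5% of all genes were called, with the quinone reductase Nqo1 at 0.89 ± 0.25, the cystine transporter Slc7a11 at -0.60 ± 0.21 and glutathione reductase Gsr at -0.52 ± 0.16. Nqo1 averaged 10.50 ± 0.33 in Type 2, 9.89 ± 0.51 in Type 3 and 7.51 ± 0.58 in Type 1, so its sign against Type 2 was the opposite (-0.61 ± 0.28). Against Type 2 alone 0 of these 14 genes passed, where 0.382% of all genes did.

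Marker lists of the cell types of adipose tissue were read beside the members in Type 3 minus the mean of Types 1 and 2. In this contrast 25.5% of all genes were called. Against Type 2 alone 0 of the tested markers passed, where 0.382% of all genes did. Of 11 tested preadipocyte and fibroblast markers, 4 were higher and 0 lower, namely Zfp423 (2.34 ± 0.40), Pdgfra (1.34 ± 0.44), Pdgfrb (1.30 ± 0.19) and Pparg (1.25 ± 0.34). Against Type 2 alone Pdgfrb differed by 0.096 ± 0.210, and Pparg had the opposite sign (-0.78). Of 8 mesothelial markers 7 were lower, with Krt18 at -4.11 ± 0.31, Lrrn4 at -4.06 ± 0.16, Upk3b at -3.97 ± 0.28 and Upk1b at -3.26 ± 0.18. Among 12 tested markers of stromal fibroblast subtypes, Gdf10 was higher (3.20 ± 0.59) and Col4a1 (-1.40 ± 0.29) and Anxa3 (-0.49 ± 0.15) lower. Of the macrophage markers only Cd68 was called (-0.98 ± 0.33), of the endothelial markers Tek (2.45 ± 0.58) and Kdr (-1.17 ± 0.34), and of the erythroid markers 0 of 2. The part of these markers in the values of the members was not tested.

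The Timd2 gene, whose protein is another receptor for ferritin, lay between 3.87 and 4.70 in every line and was not tested. Hamp, the gene of the hormone hepcidin that closes ferroportin, lay between 3.04 and 3.66. Both stayed below the table median.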

How the data were processed

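Values are the log2 signals the authors deposited, 1 array per line, used as deposited. The log2 scale was read from their range (2.03 to 14.46). The software was MAS5 per the submitters' processing notes, while the sources used here do not give the summary and scaling of the arrays. The medians of the arrays ran from 5.09 to 5.16. No detection calls were used. Precision is limited by the number of arrays.

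Of 45101 sets of probes, 34958 list 1 gene symbol, 932 several and 9211 none, per the platform annotation. For 34754 sets the Entrez ID was found in the RefSeq table of GRCm38.p6. A set with several symbols named no gene.

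Groups came from the labels, and depot was read from clone names. All 23 lines were fitted together with limma 3.58.1 (lmFit and eBayes, R 4.3.3), with the Benjamini-Hochberg adjustment over 12307 genes and a threshold of 0.05. Depot and each score were fitted with group in the model. Single-value tests used scipy 1.17.1 and numpy 2.4.6, and the scripts were tested on simulated data. The named genes are all members, up to 4 others per list with the largest difference among those called, and the 5 genes most like and most unlike Scara5, with clone and predicted names left out. The cell type markers given by name, Tfr2, Aco1, Ireb2, Timd2 and Hamp were added after their values were seen. Members and lists were chosen with earlier results of these data known. RefSeq promoter windows (250 bases before a start) matched 3 of the 8 members. Alternatives covered the choice among sets of probes, the filter, the scaling, array weights, covariates, an offset of 32 on the linear scale and left-out lines.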

Additional observations from a re-analysis of the deposited data

Results flagged for a closer look

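Of 21 sets of lines checked (7 members in Type 2, Type 3 and Other), 1 held a line far from the rest, and chance gives about 1 in 20. Slc11a2 in Other line 6 had a log2 signal of 8.44, while the next Other line stood at 7.17 and the lowest at 6.87. The gap to the next line was 0.81 of the whole range, above the critical value of 0.568 for 7 lines. The same line had the highest Cp of all 23 lines, at 9.01.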

How the results depend on the processing

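Of 874 values recomputed, 7 moved and 34 changed sign, all of the 34 in depot or score results that did not pass. Another 6 were counts of members called that rose by more than 1.5 times. A further 8 were such counts that fell by more than 1.5 times or to 0. Differences between types were compared by size and sign, not by whether they passed. Among differences between types, 10 that were not called also changed sign, and 0 that were called did. With the mean of a gene's sets of probes, Scara5 in Type 3 was 2.42 above the mean of Types 1 and 2, 2.67 above Type 1 and 2.17 above Type 2, and Slc40a1 was -1.37 in Type 3 minus Type 1 and 1.30 in Type 1 minus Type 2. With an offset of 32 the last 2 were -1.49 and 1.47. Members called in Type 3 minus the mean of Types 1 and 2 stayed at 4 in every alternative run. In Type 3 minus Type 1 the count was 3 with the mean of sets, with depot and with the clone-name number in the model, and ran from 2 to 4 as single lines were left out. In Type 3 minus Type 2, with 1 in the fit reported, it was 0 with the mean of sets, the set of largest variance, no filter, the clone-name number in the model, without the 3 Type 1 lines and with the offset of 32, 3 with array weights and 3 with the 16 lines of the types alone, and 0 to 1 as single lines were left out. Tfrc and Fth1 were the members gained with array weights and with the 16 lines. The genes called in Type 3 minus Type 2 were 47, against 1037 with array weights, 567 with the 16 lines and 0 to 195 with single lines left out. In Type 1 minus Type 2, with 1, it was 2 with the set of largest variance, 3 with array weights, 2 with the 16 lines, and 1 to 2 as single lines were left out (2 without Type 3 line 4, Other line 6 or Other line 7). For PGF minus SCF, the values of the opposite sign were 0.087 (array weights) and 0.008 (16 lines) for Scara5, 0.031 for Fth1 and 0.241 for Cp (16 lines), -0.013 (array weights), -0.077 (16 lines) and -0.055 (clone-name number) for Slc40a1, -0.011 (array weights) and -0.066 (16 lines) for Slc11a2, 0.374 for Hmox1 (clone-name number), and 0.388 (group left out) and 0.016 (offset) for Cp. With single lines left out this difference ran from -0.784 to 0.053 for Scara5, -0.236 to 0.122 for Slc40a1, -0.034 to 0.220 for Slc11a2 and -0.370 to 0.313 for Cp. Scara5 by depot within Type 3 ran from -0.035 to 1.07, below 0 without line 1, 5 or 8. Along the differentiation score, Tfrc was -0.015 (16 lines), -0.166 (group left out), -0.021 (clone-name number) and -0.139 to 0.151 with single lines left out, and Slc40a1 was -0.139 (group left out). Along the acidification score, Fth1 was -0.004 (largest variance), -0.014 (array weights), -0.004 (16 lines), -0.016 (group left out), 0 (without Type 1, negative before rounding) and -0.009 to 0.022 with single lines left out. There Slc40a1 was 0.112 (group left out) and Cp -0.032 (16 lines), and with single lines left out Slc40a1 ran from -0.082 to 0.025 and Slc11a2 from -0.003 to 0.154. The array weights stopped before they converged. The cause of these changes was not tested. No paired analysis was possible because the replicate numbers were given in accession order and only name a line. With 1 array per clone, array and clone cannot be told apart.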

Other observations

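The 1 set of probes that lists both Trf, the gene of transferrin, and Srprb was assigned to neither gene. Its log2 signal was 11.07, 9.35 and 9.47 in the 3 Type 1 lines, between 3.92 and 4.50 in Type 2 and between 4.01 and 5.08 in Other. In Type 3 it ran from 4.02 to 7.76, with a median of 4.36, and the high value was that of line 4, the Type 3 line with the highest Scara5. Type 1 thus lay above all other lines for this set, as it did for Slc40a1. The share of all sets for which it does was not counted.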
